A study of Rattus norvegicus with 3 samples.

Results

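The regions described here are wide CUT&Tag peaks of Dor called in a library of rat oligodendrocyte precursor cells (OPC). No peak was called at them or within 1000 bases in the libraries of their differentiated progeny. In CUT&Tag an antibody brings a transposase to the targeted protein, and the DNA that the enzyme cuts there is sequenced. The OPC library was made from precursors isolated from mixed glial cultures. The other libraries came from immature oligodendrocytes (iOL, also labelled D1) and mature oligodendrocytes (mOL, D3), for both of which the labels add T3 as treatment. Per the labels' protocols, the growth medium held 10 ng/ml PDGF-AA with 20 ng/ml bFGF, and the differentiation medium 15 nM T3 with 10 ng/ml CNTF. That text is the same for all 3 samples, and no treatment is listed for OPC. One rabbit antibody to Dor was used at all stages, and each stage had 1 library, so lists that differ show libraries that differ, with no measure of the spread within a stage. What the word pool in the peak names refers to, and how many cultures or animals stood behind a library, could not be read from the labels.

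Regions were selected on the width of the OPC peak and on the positions of the iOL and mOL peaks. A region was taken if it was an OPC peak on chromosomes 1 to 20, was at least 600 bases wide, and had no iOL or mOL peak overlapping it or within 1000 bases of either border. This gave 1913 OPC-alone wide peaks, which were 3.07% of the 62263 OPC peaks on these chromosomes and 22.2% of the 8603 OPC peaks of that width (exact 95% interval 21.4 to 23.1%). Of the other wide OPC peaks, 6019 overlapped an iOL or mOL peak and 671 had one within 1000 bases without overlap. Among OPC peaks of any width, 58.2% had no iOL or mOL peak within 1000 bases. Since width and absence from the other lists chose these regions, both are given as description only. Intervals of shares here are exact Clopper-Pearson intervals and cover counting error alone.

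Dor, encoded by Tp53inp2, shuttles between nucleus and cytoplasm. In the nucleus it acts as a coactivator of thyroid hormone receptor and other nuclear receptors, and in the cytoplasm it takes part in the formation of autophagosomes. Oligodendrocyte precursors divide in response to PDGF-AA, and thyroid hormone (T3) promotes their exit from the cell cycle and their differentiation into myelinating cells. Genes, genomic features and sequences at these positions were not assigned, since a genome and annotation of rn5, the build named in the submitters' processing notes, were not used here. Whether the peaks lie at precursor or myelin genes, and the markers of the cells themselves, were therefore not analysed here.

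Most OPC-alone wide peaks were of modest height. The summit pileup, the number of fragments stacked at the highest base of a peak, ranged from 9 to 75 with a median of 17 and quartiles of 13 and 21. Against the OPC genome background of 1.47 fragments per base, the median summit stood 11.5 times and the highest 50.9 times as high. The authors' fold, the summit pileup over the local background with a pseudocount of 1 added to each, had a median of 6.47 and ranged from 2.98 to 15.9. Of the 1913 regions, 390 had at most 12 fragments, 1363 had at most 20, and 236 had more than 25. Only 32 exceeded 40 fragments. Over all OPC peaks on these chromosomes the median pileup was 13 and the median fold 5.25. A fold of at least 10 was reached by 107 of the OPC-alone wide peaks, or 5.59% (4.61 to 6.72%), against 5.34% of all OPC peaks, so the share was near that of the whole list.

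Wide OPC peaks that overlapped a peak of a later stage stood higher. Their median pileup was 36 fragments, with quartiles of 25 and 54 and a maximum of 1098, and their median fold was 8.17. A fold of at least 10 was reached by 1657 of these 6019 peaks, or 27.5% (26.4 to 28.7%). The 671 wide OPC peaks with an iOL or mOL peak nearby but not overlapping had a median of 18 fragments and a median fold of 6.16, close to the OPC-alone values. The 34301 narrower OPC peaks alone lay below all of these, with a median of 12 fragments and a median fold of 4.85. All of these values come from 1 OPC library, and peaks are not replicates of the stage, so no test was made.

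**Figure D1:**
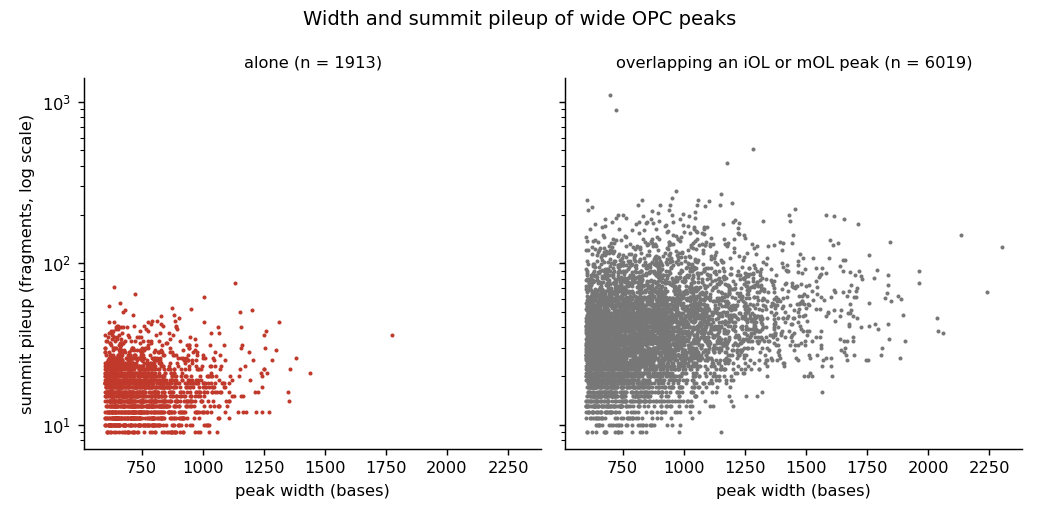
Width in bases (x axis) against summit pileup in fragments (y axis, log scale) for OPC peaks of at least 600 bases, 1 point per peak; left, the 1913 with no iOL or mOL peak within 1000 bases; right, the 6019 that overlap one. The OPC-alone peaks lie between 9 and 75 fragments around a median of 17, and the overlapping peaks reach 1098 around a median of 36.

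The OPC-alone wide peaks were also narrower, within the limit set by the rule. Their width had a median of 728 bases with quartiles of 656 and 829, and the widest spanned 1774 bases. Overlapping wide OPC peaks had a median width of 815 bases and reached 2301. Of the OPC-alone wide peaks, 765 were under 700 bases and 130 were at least 1000 bases wide. Height did not follow width closely among them: the median pileup was 17 fragments at 600 to 699 bases, 16 at 800 to 999 bases and 17 at 1000 to 1199 bases, and 22 in the 25 peaks of 1200 bases or more. In overlapping peaks the medians of these 4 classes were 31, 37, 44 and 49 fragments. The share of OPC peaks that were alone was 29.3% at 600 to 699 bases (27.6 to 31.1%), 19.1% at 800 to 999 bases (17.6 to 20.7%) and 4.13% at 1200 bases or more (2.69 to 6.03%).

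The share of wide OPC peaks that were alone fell with their height. Of wide OPC peaks with 9 to 12 fragments, 63.7% were alone (59.8 to 67.5%). The share was 43.7% at 16 to 20 fragments (41.0 to 46.4%), 13.9% at 26 to 30 (11.7 to 16.4%) and 1.86% at 41 to 60 (1.24 to 2.68%). Above 60 fragments, 4 of 1160 wide OPC peaks were alone, or 0.345% (0.0940 to 0.881%). Narrow OPC peaks of the same height had higher shares in each of the 8 classes of pileup. This is a description only, since the rule used both width and distance, and a wider peak with its margins covers more bases in which another peak can lie. At 16 to 20 fragments the narrow share was 60.7% (59.7 to 61.7%), and at 41 to 60 it was 8.46% (6.60 to 10.6%).

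**Figure D2:**
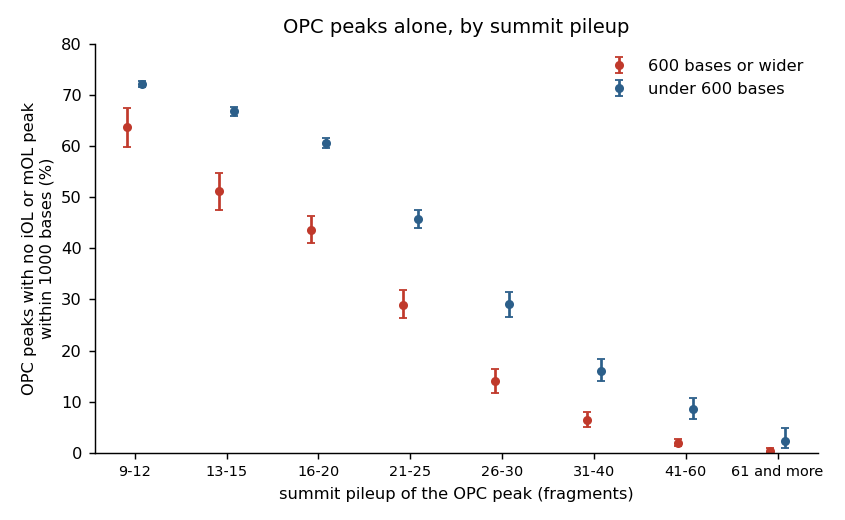
Share of OPC peaks with no iOL or mOL peak within 1000 bases (y axis, percent) by summit pileup in fragments (x axis), for peaks of at least 600 bases (red) and narrower ones (blue); bars are exact 95% intervals for counting error. Both shares fall with height, from 63.7% and 72.2% at 9 to 12 fragments to 0.345% and 2.35% above 60 fragments.

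The local background, the coverage of the neighbourhood that the peak caller sets against a summit, was low around many of these regions. It equalled the genome value in 943 of the 1913, or 49.3% (47.0 to 51.6%), beside 62.1% of all OPC peaks. The share was 6.63% in overlapping wide peaks (6.01 to 7.29%) and 77.3% in narrow OPC peaks alone (76.8 to 77.7%). Part of this gap went with height, and it narrowed at equal pileup. At 16 to 20 fragments, OPC-alone and overlapping wide peaks had median local backgrounds of 1.51 and 1.86 fragments per base, and at 26 to 30 fragments of 2.23 and 2.86. The median fold was accordingly higher in the OPC-alone peaks, at 7.14 against 6.67 and at 8.82 against 7.43. This order held in 7 of the 8 classes and was turned at 41 to 60 fragments, where 28 OPC-alone peaks had a median fold of 8.86 and a local background of 4.64, against 9.36 and 4.28.

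The summit lay near a border in a minority of the regions. In 237 of the 1913, or 12.4% (10.9 to 13.9%), it fell in the outer 10% of the peak at either end, beside 13.4% of all OPC peaks. Overlapping wide peaks had 5.45% (4.89 to 6.05%). At equal height the share of OPC-alone peaks was the lower in 7 of the 8 classes of pileup, all but that of 41 to 60 fragments. Several of these gaps were small, and no intervals were calculated for them. The class above 60 fragments held only 4 OPC-alone peaks. OPC-alone and overlapping peaks had 16.4% and 16.9% at 9 to 12 fragments, 12.6% and 14.4% at 16 to 20, and 1.63% and 6.41% at 26 to 30.

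By fold the first region lay at chr19:45295333-45295986 (rn5, counted from 1). It was 654 bases wide and had 39 fragments at its summit, a fold of 15.9 and 26.5 times the genome background. The nearest mOL peak was 4366 bases and the nearest iOL peak 8897 bases away. At equal signal over background the mOL library would have had 48.4 fragments there and the iOL library 14.3, where 10 and 6 were the fewest that could be called if the local background kept its ratio to the genome value. The second, at chr5:118509395-118510051, had 36 fragments and a fold of 14.2, with the nearest mOL peak 14462 and the nearest iOL peak 18160 bases away. The third, at chr15:63733924-63734574, had 41 fragments and a fold of 14.0 and was more isolated, at 28172 bases from an mOL and 120361 bases from an iOL peak. All 3 stood above 24 times the genome background in OPC. Their pileups were within reach of the mOL library and not of the iOL library by the stricter measure of coverage given with the histogram of pileups, so the lack of an iOL peak there was not counted as a measured difference.

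Several of the next regions by fold had an mOL peak within 4000 bases. At chr18:57537602-57538608, 43 fragments gave a fold of 13.4 over 1007 bases, with an mOL peak 1291 bases away. The fold was 13.3 at chr11:48239580-48240218 (35 fragments, mOL peak at 3809 bases) and 13.3 at chr14:54954112-54954962 (32 fragments, mOL peak at 2589 bases). At chr8:23363550-23364210, 57 fragments gave a fold of 13.3, and the nearest mOL and iOL peaks were 11337 and 19499 bases away. Of the first 10 by fold, this was the one that was also among the 5 of highest pileup. The other 3 were at chr7:30550927-30551528 (36 fragments, fold 13.1), at chr8:98053595-98054566 (31 fragments, fold 12.9) and at chr12:18187639-18188329 (40 fragments, fold 12.6). Near the one starting at 98053595 both lists had a peak just beyond the limit, at 1271 bases in iOL and 1553 bases in mOL.

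The regions of highest pileup had a raised local background. The highest lay at chr9:95617673-95618805, where 75 fragments over a local background of 5.88 gave a fold of 11.0. An iOL peak lay 4910 bases and an mOL peak 11620 bases away. At chr1:243644599-243645234 there were 71 fragments and a fold of 11.6, and another OPC peak lay 1326 bases away. At chr4:143365689-143366411, 64 fragments gave a fold of 12.6, and an mOL peak began 1096 bases from the border, just outside the limit. At chr7:26832790-26833793, 62 fragments stood over a local background of 10.6 and gave a fold of 5.43. The first 10 by fold and the first 5 by pileup had 1 region in common. This count depends on the cut-offs. The region on chromosome 4, with a fold of 12.6169, fell just short of the tenth by fold, at 12.6442.

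The widest region was at chr10:32856834-32858607, with 1774 bases, 36 fragments and a fold of 5.22 over a local background of 6.09. Its nearest mOL peak was 13737 and its nearest iOL peak 50377 bases away. The others of the 5 widest were at chr12:54055243-54056680 (1438 bases, 21 fragments), at chr3:56871623-56873003 (1381 bases, 26 fragments), at chr4:198313594-198314949 (1356 bases, 22 fragments) and at chr2:139704636-139705987 (1352 bases, 14 fragments). None of these 5 was among the 10 of highest fold or the 5 of highest pileup.

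At the width limit, the medians inside and outside lay close together. The 87 OPC-alone peaks of 600 to 609 bases had a median pileup of 19 fragments and a median fold of 7.29. The 100 peaks of 590 to 599 bases that met the distance limit had 18 fragments and a fold of 6.60. Exactly 600 bases were measured in 8 and exactly 599 in 7 peaks. At the distance limit, single peaks had 11 to 18 fragments in the 5 closest regions kept and 10 to 55 in the 5 closest left out. The closest regions kept had 1003 bases to the nearest iOL or mOL peak, at chr15:64522250-64522935 (16 fragments, fold 6.87), and 1004 bases, at chr2:15730472-15731215 (16 fragments, fold 6.87). The closest left out had 1000 bases between the borders, at chr5:111264731-111265339 (13 fragments, fold 5.66), and 998 bases, at chr16:7138606-7139261 (55 fragments, fold 7.60).

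What the coverage of the later libraries could show at these regions was calculated under set assumptions. Whether coverage accounts for the missing peaks was not tested. The mOL library had a genome background of 1.83 and the iOL library one of 0.540 fragments per base, and the weakest callable pileup over it was 10 fragments in mOL and 6 in iOL. If signal over background were equal and fragments independent, the mOL library would call an OPC summit of at least 24 fragments with a probability of 0.99, counted from the lower 95% Poisson limit of its pileup. The iOL library would need 49. By this measure, 324 of the 1913 OPC-alone wide peaks could be called in mOL (16.9%, 15.3 to 18.7%), beside 15.7% of all OPC peaks. Only 12 could be called in iOL (0.627%, 0.325 to 1.09%), beside 4.07% of all OPC peaks. For the regions below these limits, the absence of a peak in the other library was not counted as a measured difference. The shares depended strongly on how strict the measure was. With the pileup itself in place of its lower limit, 59.0% could be called in mOL and 3.29% in iOL, and at a probability of 0.50 it was 65.6% and 14.3%. Scaled by the pileup ratio at regions shared with mOL, 38.6% could be called in mOL, and no iOL share was calculated under this scaling. When the local background of each region was carried over in place of the genome value, 199 regions could be called in mOL and 3 in iOL. The treatment of duplicate fragments is not stated in the labels.

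**Figure D3:**
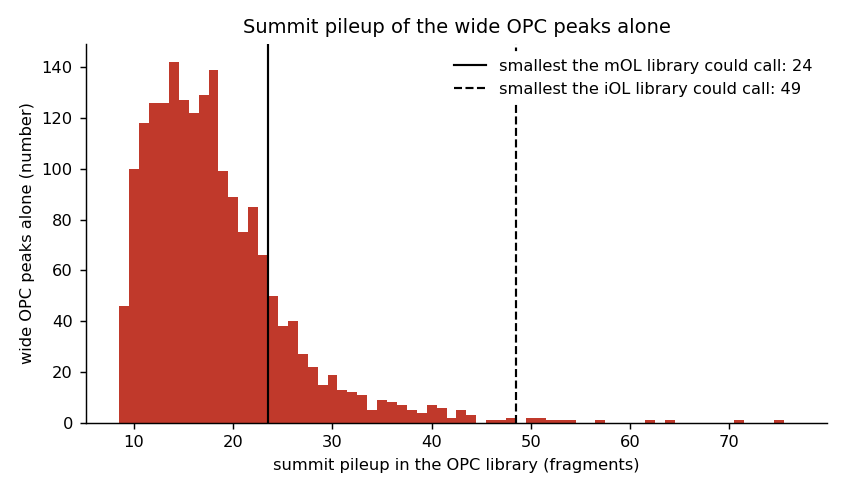
Number of OPC-alone wide peaks (y axis) by summit pileup in fragments (x axis, bins of 1 fragment). The solid line marks 24 fragments, from which the mOL library met the measure at equal signal over the genome background. The measure is a call probability of 0.99, counted from the lower 95% Poisson limit of the pileup. At or above the solid line were 324 regions. The dashed line marks 49, the value for the iOL library, with 12.

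Most wide OPC peaks within reach of the mOL library had an iOL or mOL peak within 1000 bases. There were 5216 such peaks, and 324 of them, or 6.21% (5.57 to 6.90%), had no iOL or mOL peak within 1000 bases. With mOL overlap alone as the measure, 637 of them, or 12.2%, had no overlapping mOL peak. Among the 1887 wide OPC peaks within reach of the iOL library, the 12 made up 0.636% (0.329 to 1.11%), while 561, or 29.7%, had no overlapping iOL peak. The 324 regions had a median pileup of 28 fragments and a median fold of 9.08. Their local background was at the genome value in 31 (9.57%), beside 49.3% of the 1913 and 62.1% of all OPC peaks. The 324 were selected by pileup, and this share fell with pileup among OPC-alone wide peaks. It was 75.9% at 9 to 12 fragments and 10.6% at 26 to 30. The median distance from the 324 regions to the nearest mOL peak was 4314 bases, against 4876 bases for the 1589 regions below 24 fragments. An mOL peak lay within 2000 bases of 59 of the 324, beside 316 of all 1913 (16.5%).

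At 12 regions both later libraries had the coverage to call a peak of equal signal over the genome background. With local backgrounds carried over, only 3 of the 1913 regions could be called in iOL. The 12 include the 5 of highest pileup named above. The rest, named after their values were seen, had 50 to 54 fragments. At chr8:116700657-116701271, 54 fragments stood over a local background of 14.5, the highest of all the 1913, and gave a fold of 3.54; mOL and iOL peaks lay 2168 and 2433 bases off. At chr19:66785825-66786700 there were 53 fragments and a fold of 9.98. At chr12:32248254-32249204, 52 fragments gave a fold of 11.4, and both lists had a peak close to the limit, at 1074 bases in mOL and 1147 bases in iOL. At chr1:273228334-273229014 there were 51 fragments, and at chr10:55234425-55235628 there were 51 fragments over 1204 bases. The last pair, with 50 fragments each, lay at chr5:168590940-168592092 and at chr9:82374404-82375079. Distances from these 12 regions to an mOL peak ranged from 1074 to 11620 bases.

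Most OPC-alone wide peaks had an mOL peak in the wider neighbourhood, as did most narrow OPC peaks alone. The nearest mOL peak lay at a median of 4759 bases, with quartiles of 2514 and 9109, and the nearest iOL peak at a median of 11984 bases. An mOL peak lay within 5000 bases of 1000 of the 1913 regions (52.3%, 50.0 to 54.5%) and within 10000 bases of 1484 (77.6%). An iOL peak lay within 10000 bases of 831 (43.4%). The mOL list, at 166805 peaks, was longer than the iOL list of 59681, and the nearest peak of both was an mOL peak for 1428 regions. Narrow OPC peaks alone lay slightly farther off, at medians of 5299 bases from an mOL and 14228 bases from an iOL peak. Of these narrow peaks, 47.6% had an mOL peak within 5000 bases and 73.3% within 10000 bases. The share with an iOL peak within 10000 bases was 38.0%. The nearest peak was an mOL peak for 75.2% of the narrow peaks, beside 74.6% of the OPC-alone wide peaks. No iOL or mOL peak lay within 10000 bases of 287 OPC-alone wide peaks (15.0%, 13.4 to 16.7%), against 18.6% of the narrow ones (18.2 to 19.0%).

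The 5 most isolated regions had 11 to 27 fragments. The region farthest from any iOL or mOL peak lay at chr16:69670278-69671118, with 106290 bases to an mOL and 288133 to an iOL peak. It had 11 fragments and a fold of 4.85. At chr15:54072646-54073468, 19 fragments lay 73236 bases from an mOL peak, with the summit at 2.49% of the peak's length. The next were at chr8:83844719-83845701 (15 fragments, mOL peak at 44000 bases) and at chr20:40213899-40214569 (16 fragments, mOL peak at 38068 bases). The fifth, at chr3:45205399-45206021, was the only one of the 5 that met the measure of 24 fragments for mOL. It had 27 fragments and a fold of 10.4. At equal signal the others would have had 13.7 to 23.6 fragments in mOL. The fewest that could be called there were 10 or 11, if the local background kept its ratio to the genome value.

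**Figure D4:**
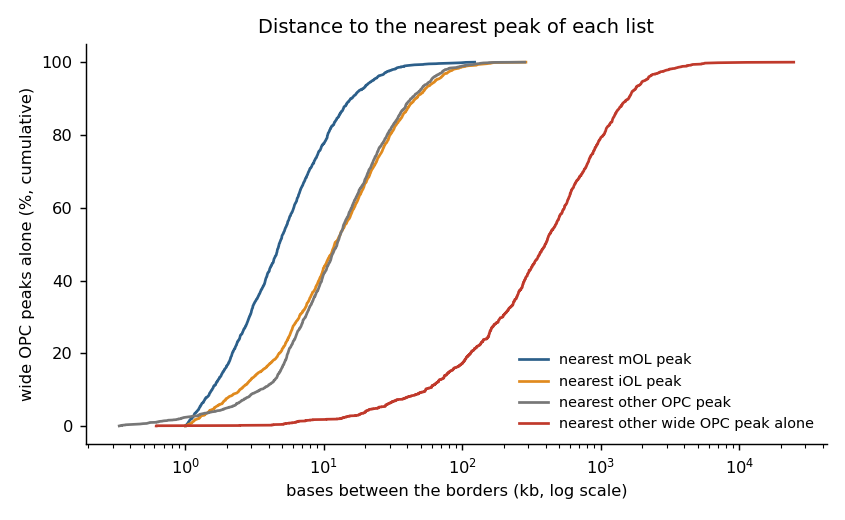
Cumulative share of the 1913 OPC-alone wide peaks (y axis, percent) by bases between their border and the nearest mOL peak, iOL peak, other OPC peak and other OPC-alone wide peak (x axis, kb, log scale). Medians were 4759 bases to an mOL, 11984 to an iOL and 12488 to another OPC peak, and the curve for other OPC-alone wide peaks lies far to the right.

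The mOL peaks close to these regions had a pileup and width near those of the mOL list as a whole. Their local background was less often at the genome value. For 686 regions the summit of the nearest mOL peak lay within 4000 bases of the region's summit. These neighbours had a median pileup of 18 fragments and a median width of 400 bases, against 16 fragments and 401 bases over all mOL peaks on chromosomes 1 to 20. The mOL local background there was 1.08 times the mOL genome value at the median, and at the genome value in 309 (45.0%, 41.3 to 48.9%), beside 55.2% of all mOL peaks. At the same regions the OPC local background was 1.07 times its genome value at the median.

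Within the OPC list, the regions were spaced about as narrow OPC peaks alone were. Another OPC peak of any kind lay at a median of 12488 bases, within 10000 bases of 799 regions (41.8%, 39.5 to 44.0%) and within 1000 bases of 46 (1.77 to 3.19%). The shares in overlapping wide peaks were 47.1% (45.8 to 48.3%) and 5.72% (5.14 to 6.33%). In narrow OPC peaks alone the median distance was 13151 bases, and the shares were 40.7% and 3.22%. The nearest other OPC peak was itself alone for 1137 regions (59.4%, 57.2 to 61.6%), beside 58.2% of all OPC peaks, and overlapped an iOL or mOL peak for 487 (25.5%), beside 25.5% of all OPC peaks. The neighbours of these regions were therefore alone about as often as OPC peaks at large.

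Another OPC-alone wide peak was within 10000 bases of 34 regions and within 5000 bases of 8, which form 4 pairs. At chr3:169042066-169042902 and chr3:169043520-169044147, 617 bases separated peaks of 41 and 37 fragments. At chr10:86571049-86571853 and chr10:86574339-86575143, peaks of 22 and 21 fragments, both 805 bases wide, lay 2485 bases apart. The pair at chr20:49859136-49859850 and chr20:49864052-49864902 had 13 and 14 fragments, and that at chr9:85321107-85321839 and chr9:85326196-85326948 had 17 and 16. In each pair the pileups differed by no more than 4 fragments.

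Between chromosomes, the density of OPC-alone wide peaks varied about as much as that of all OPC peaks in this library. That of overlapping wide OPC peaks varied more. The density of OPC-alone wide peaks was 0.697 per Mb over chromosomes 1 to 20. It ran from 0.539 per Mb on chromosome 14 to 0.937 on chromosome 12, or 1.74 times the lowest. All OPC peaks ran from 17.3 per Mb on chromosome 4 to 31.7 on chromosome 10, or 1.84 times the lowest. Overlapping wide OPC peaks ran from 1.28 per Mb on chromosome 4 to 4.46 on chromosome 10. The share of wide OPC peaks that were alone was thus lowest on chromosome 10, at 15.7% (13.0 to 18.7%, 101 of 644), and highest on chromosome 4, at 28.2% (24.3 to 32.3%, 140 of 497). Chromosome 2 stood close to chromosome 4, at 27.7% (24.3 to 31.4%), and chromosome 7 was second lowest at 18.4% (15.2 to 21.9%). Intervals of the 16 chromosomes between these overlapped the share of all 20 together. Across the 20 chromosomes the densities of OPC-alone and overlapping wide peaks rose together, with a Spearman coefficient of 0.877. Between OPC-alone wide peaks and all OPC peaks the coefficient was 0.868. Both are given as a description, since all values come from 1 library. Chromosome lengths were taken as the end of the last peak.

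**Figure D5:**
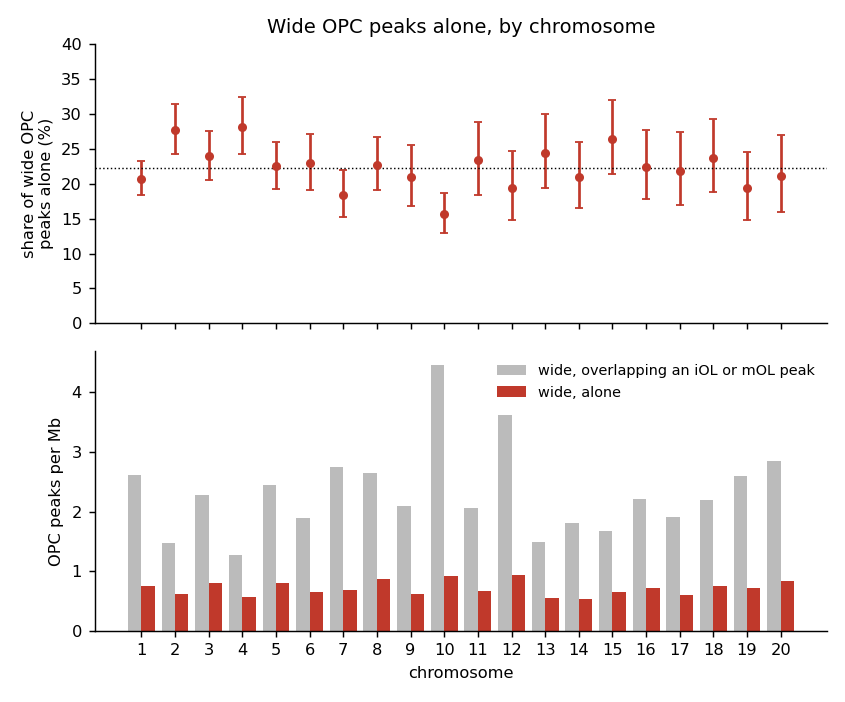
Top, share of wide OPC peaks that were alone on each chromosome (percent, exact 95% intervals for counting error; the dotted line is the share of all 20). Bottom, wide OPC peaks per Mb, overlapping an iOL or mOL peak (grey) or alone (red). Chromosome 10 has the lowest share, 15.7%, and the highest density of overlapping peaks, 4.46 per Mb.

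Local gatherings of these regions were small. Of 2756 windows of 1 Mb, 1455 held none, 847 held 1 and 334 held 2. The fullest held 6 of its 13 wide OPC peaks as OPC-alone, at chr1:226000001-227000000. That window held 58 OPC peaks of any width, 30 of iOL and 105 of mOL. Another 6 windows held 5. Among these, 5 of 6 wide OPC peaks were alone at chr13:41000001-42000000 and at chr18:43000001-44000000, while at chr8:47000001-48000000 it was 5 of 27. These windows are the extremes of all 2756 and were chosen for that.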

How the data were processed

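Each of the 3 libraries gave 1 deposited peak list. Per the submitters' processing notes, MACS2 2.2.7.1, Bowtie2 2.4.4 and deepTools 3.5.1 were used with rn5; their roles are not stated. Per the file layout, the deposited columns are start, end and summit in bases, a score, a fold (a linear ratio), and p-values and q-values on the −log10 scale. The authors' lists held no −log10 p under 5. The deposited score was not used. Pileup and local background were solved from the deposited fold and p, with MACS2's pseudocount of 1 and Poisson p, and a whole pileup returned the p within a relative 1e-05 in 100% of rows of each list. The most frequent background is the genome background. Distances are bases between borders. No rows overlapped. The calculation was tested on simulated data. Python 3.11.15, scipy 1.17.1 and pandas 2.3.3 were used. With 1 library a stage, no test was made. Named regions are the 10 of highest fold, 5 widest, 5 of highest pileup, 5 farthest from iOL and mOL peaks, and those at the limits. The regions, classes and measures were chosen with earlier results of these data known. Features, genes and sequences were planned but not run. Alternatives are in the closing section.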

Additional observations from a re-analysis of the deposited data

How the results depend on the processing

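The number of OPC-alone wide peaks moved by over 1.5 times when the rule itself was moved: 2980 at a width of at least 500 bases (25.7% of OPC peaks of that width), 596 at 800 bases (14.9%) and 752 at a distance over 5000 bases (8.74%, with 15.0% callable in mOL). With overlap alone as the bar there were 2584, 30.0% of wide OPC peaks, 20.0% of them callable in mOL. The share of wide OPC peaks was 23.8% with a −log10 q of at least 5 in all lists (median fold 6.67, 19.5% callable in mOL) and 28.6% with lists of equal length (19.8% callable in mOL). It was 26.2% with a fold of at least 5 (median fold 6.87, 25.7% callable in mOL and 2.85% in iOL), and 23.2% with 200 bases at each iOL and mOL summit. Joining rows within 100 bases changed no value and all sequences moved none beyond its counting interval. In 2 settings added after seeing the data, OPC peaks of more than 25 fragments alone gave 236 regions (4.91% of wide OPC peaks, median fold 8.90, 100% callable in mOL by construction and 5.08% in iOL), and the local background left 10.4% callable in mOL and 0.157% in iOL. The callable shares depended most on the strictness of the call: 65.6% in mOL and 14.3% in iOL at a probability of 0.50, and 59.0% and 3.29% with the pileup in place of its lower limit. Scaled by the median mOL to OPC pileup ratio of 1.68 at 2114 shared regions, also added later, 38.6% could be called in mOL. No iOL share was calculated under this scaling. No paired analysis was possible because there is a single library for each group.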

Other observations

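Chromosome X, left out by the rule, held 61 OPC peaks that met the same limits of width and distance, out of 202 wide OPC peaks there (30.2%, 24.0 to 37.0%). Their density was 0.395 per Mb, with a median of 17 fragments and a highest pileup of 36, and folds from 4.04 to 11.7 around a median of 6.87. The widest spanned 1442 bases.

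The same rule applied to the other lists gave 13823 of 24363 wide mOL peaks (56.7%, 56.1 to 57.4%) and 1248 of 3450 wide iOL peaks (36.2%, 34.6 to 37.8%) with no peak of another list within 1000 bases. Their median pileups were 22 and 10 fragments, or 12.0 and 18.5 times the genome background of their own library, and their median folds were 6.65 and 6.58, beside 6.47 in OPC. The lists differ in length and depth, and these shares were not compared by a test.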
